A study of Mus musculus with 6 samples.

Results

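Noct encodes nocturnin, a circadian-regulated protein whose transcript stood far higher in the Dnmt1 knockout arrays of this series, and it is described here with 9 genes of the circadian clock: Per1, Per2, Cry1, Cry2, Arntl, Clock, Nr1d1, Nr1d2 and Dbp. Noct was chosen by its steady rise between the same groups, so its values and their spread are given as a description with no test. The question put to the other genes is whether any of them changed as well. All 10 genes had a probe set, a group of short probes that reads out 1 transcript, and together they had 14 of the 22626 probe sets that were not array controls. These 10 were among 12393 named genes.

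RNA came from mouse cells separated with magnets as CD4+CD25+, the surface phenotype of regulatory T cells, which restrain immune responses and depend on the transcription factor Foxp3. The wild type group was 3 arrays of C57BL6 mice. The knockout group was 3 arrays of mice labelled fl-DNMT1/Foxp3cre, on the same labelled strain, in which a floxed Dnmt1 gene meets Cre recombinase produced where Foxp3 is active, and Dnmt1 is the enzyme that copies DNA methylation at cell division. The wild type mice are not described as carrying the floxed allele or the Cre, so what these do by themselves and what the deletion does cannot be told apart. The sources used here give neither age nor sex nor the hour at which cells were taken, on which clock transcripts depend. The samples are called independent without a statement that each was 1 animal, so a p-value here reflects the spread among these arrays, which may be technical.

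The circadian clock is a feedback loop of transcription. Clock and Arntl (also called Bmal1) pair to switch on genes through E-box sequences, among them the Per, Cry and Nr1d genes and Dbp. The Per and Cry proteins then repress the pair, Nr1d1 and Nr1d2 (Rev-erb alpha and beta) repress Arntl, and Dbp carries the rhythm to output genes. Nocturnin is related to deadenylases, the enzymes that shorten the poly(A) tails of mRNA, and has been described as a phosphatase of NADP(H). Its transcript is rhythmic in many tissues and is also known as an immediate early gene.

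The promoter windows of the 4 genes whose differences between the groups lay farthest from 0, Noct, Dbp, Nr1d1 and Cry1, are shown because the deleted enzyme acts on the CG pairs in such sequences. The sequences are RefSeq's on GRCm38.p6, from 250 bases before to 50 bases after the annotated start of transcription, 5′ to 3′ along the gene, with CG pairs in capitals. They lie at chr3:51224197-51224496 (plus strand) for Noct, chr7:45704997-45705296 (plus strand) for Dbp, chr11:98775328-98775627 (minus strand) for Nr1d1 and chr10:85185005-85185304 (minus strand) for Cry1. Methylation was not measured in this series.
Noct: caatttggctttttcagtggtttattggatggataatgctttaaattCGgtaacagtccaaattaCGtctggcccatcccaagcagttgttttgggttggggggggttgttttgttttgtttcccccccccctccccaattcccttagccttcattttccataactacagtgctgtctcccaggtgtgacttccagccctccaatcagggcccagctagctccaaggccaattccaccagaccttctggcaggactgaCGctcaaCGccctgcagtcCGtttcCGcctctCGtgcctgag
Dbp: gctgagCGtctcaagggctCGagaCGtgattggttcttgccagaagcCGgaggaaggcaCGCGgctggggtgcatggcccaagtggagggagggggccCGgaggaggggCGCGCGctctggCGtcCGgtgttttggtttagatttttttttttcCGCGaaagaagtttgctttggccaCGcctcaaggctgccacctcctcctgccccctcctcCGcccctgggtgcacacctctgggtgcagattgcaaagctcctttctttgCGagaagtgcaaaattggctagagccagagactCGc
Nr1d1: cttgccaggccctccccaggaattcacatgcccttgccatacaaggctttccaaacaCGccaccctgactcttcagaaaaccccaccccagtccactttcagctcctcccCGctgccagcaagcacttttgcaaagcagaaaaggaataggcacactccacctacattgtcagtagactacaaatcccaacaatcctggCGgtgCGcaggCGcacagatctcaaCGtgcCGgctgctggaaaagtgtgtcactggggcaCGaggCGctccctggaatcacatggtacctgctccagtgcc
Cry1: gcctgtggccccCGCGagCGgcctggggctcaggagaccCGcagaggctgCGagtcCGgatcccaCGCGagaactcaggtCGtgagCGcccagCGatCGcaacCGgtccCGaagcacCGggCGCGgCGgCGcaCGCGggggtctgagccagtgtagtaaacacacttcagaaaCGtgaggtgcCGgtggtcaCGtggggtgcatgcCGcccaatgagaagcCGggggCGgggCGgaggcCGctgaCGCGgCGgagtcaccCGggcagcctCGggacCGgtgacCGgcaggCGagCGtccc

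The Noct window held 7 CG pairs, which is the median of the 32851 windows of 300 bases in the RefSeq table. Nr1d1 had 9, Dbp 18 and Cry1 38, where 95.05% of all windows had fewer than Cry1. Of the 10 genes 9 were in the table, with 13 windows, and Per2 was not. The E-box letters CACGTG, which read the same on both strands, were found in 7.15% of all windows and in a window of Per1 and that of Cry1. In Cry1 the first base of the match lay at position -60 from the start. The other windows, Noct included, did not hold these letters, and the D-box letters TTATGTAA or TTACGTAA (1.056% of all windows) and the full cAMP response element TGACGTCA (1.79%) were in none of the 13, searched on both strands. The shorter TGACG, which also lies inside the full element, was in 20.81% of all windows and in those of Noct, Per1, Cry1 and Cry2. A match or its absence says only which letters are in these windows.

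The values are log2 expression summaries, on which a difference of 1 is a doubling. Array medians lay between 5.69 and 5.77. Over all probe sets the arrays correlated at 0.996 to 0.997 within wild type, 0.990 to 0.993 within the knockout and 0.984 to 0.991 between the groups. Dnmt1 itself had 9.56, 9.43 and 9.50 in wild type and 8.67, 8.89 and 9.34 in the knockout on 1 probe set. It did not pass the test there (difference -0.53, limma adjusted p = 0.162) or on its other probe set (-0.72, 0.113), and neither did Foxp3 (-0.66, 0.151). Where the Dnmt1 probes lie relative to the deleted part is not given here. The mean of 16 neutrophil markers lay at 5.74 to 6.12 on the wild type arrays and at 7.76, 9.82 and 8.45 on knockout replicates 1, 2 and 3, with 10 of the 16 called higher. Regulatory T cell markers (6 genes) had means of 8.94 to 9.06 and 8.16 to 8.74, with 2 called lower, Ikzf2 and Il2ra. All 6 differences were negative, against 53.7% of all genes, and 5 (83.3%) had an unadjusted limma p under 0.05. T cell markers (6 genes) had means of 10.93 or above in wild type and of 10.64 to 10.99 in the knockout. By the brightest probe set of each gene, the only other markers called were Cd14 of 9 for monocytes and Ncr1 of 6 for natural killer cells, both higher. At an unadjusted p under 0.05 there were 5 of the 6 natural killer markers (83.3%), 4 higher and 1 lower. Of the 9 monocyte markers 3 (33.3%) were at that level, all higher. In 28 markers of dendritic, B, plasma, CD8 T, erythroid and T cells 0 were called by limma and 6 (21.4%) had an unadjusted p under 0.05. The higher ones were 2 of 3 erythroid, 1 of 6 dendritic and 1 of 4 plasma cell markers. The lower ones were 1 of 2 CD8 T and 1 of 6 T cell markers. By the same rule of the brightest probe set, 1.32% of all 12393 genes were called higher, 0.516% were called lower and 17.7% had an unadjusted p under 0.05, of which the higher made up 8.46% of all genes and the lower 9.19%. In such bulk RNA, fewer cells of a type and less RNA per cell cannot be told apart.

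Noct had values of 7.30, 7.51 and 7.20 on wild type replicates 1, 2 and 3 and of 10.87, 10.81 and 10.64 on knockout replicates 1, 2 and 3. The 3 knockout arrays were thus high together and all wild type arrays low, with a gap of 3.14 between the lowest knockout and the highest wild type value. The group means were 7.34 ± 0.16 and 10.77 ± 0.12 (SD, n = 3), a difference of 3.44 or 10.8-fold. On the log2 scale the difference was 4.96 times the largest, in either direction, of any clock probe set. The Noct probe set is 1425837_a_at, where the suffix marks probes shared by transcripts of 1 gene, and no other probe set was named for Noct.

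**Figure D1:**
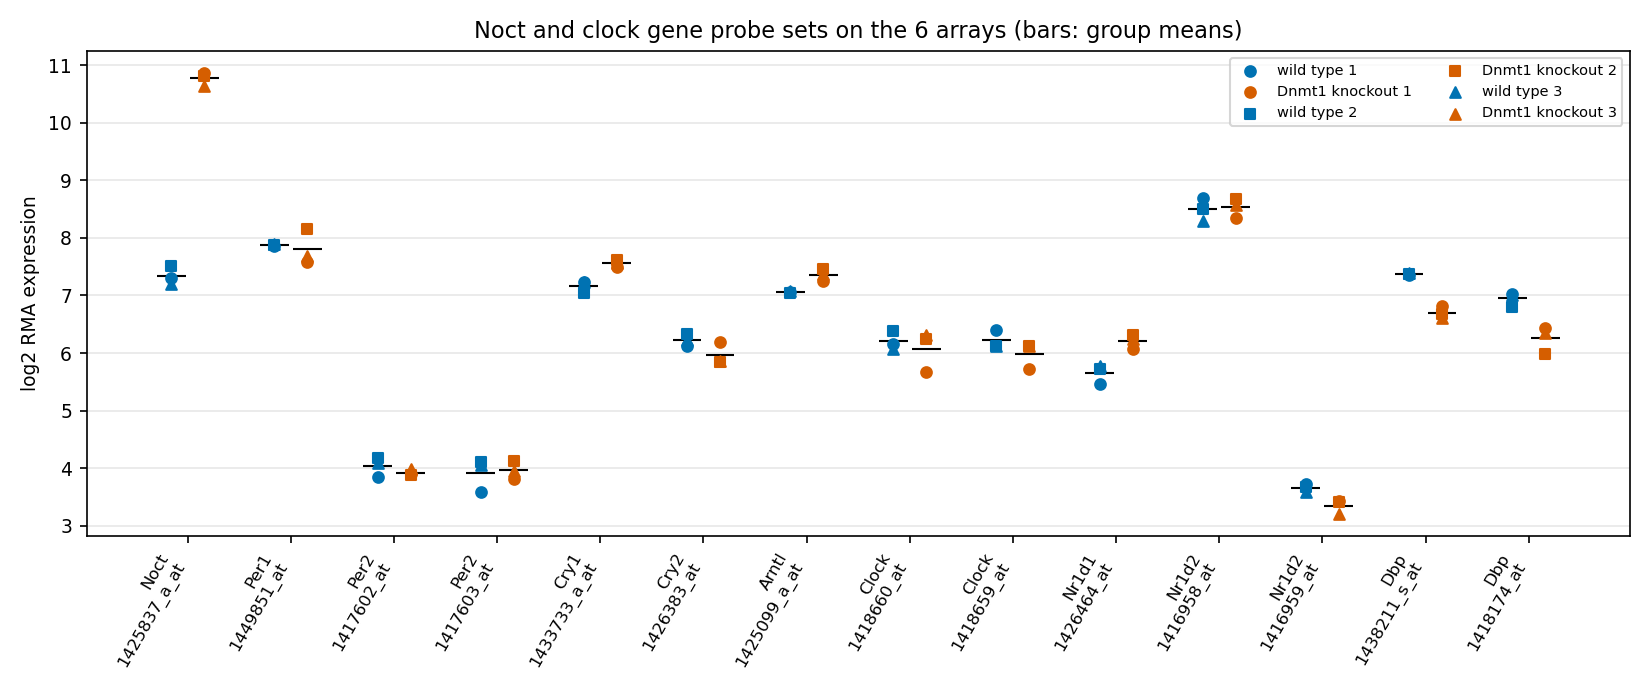
Log2 RMA expression (y axis) of the 14 probe sets of Noct and 9 clock genes (x axis) on each array, wild type in blue and Dnmt1 knockout in orange, with bars at the group means; heights of different probe sets are not comparable. Noct is the 1 gene whose groups are far apart (means of 7.34 and 10.77), Dbp is lower on every knockout array, and Per1, Per2 and Clock overlap.

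Noct was chosen for being steady over the knockout arrays as well as for its rise, so its small spread there is only described. Of 65 probe sets higher by 2 or more in the knockout, 2 had a smaller SD over the 3 knockout arrays than Noct (0.12), and the median SD of the 65 was 0.92. They were Tnfrsf14, which encodes a receptor of the TNF family (SD 0.02), and a probe set with no gene symbol (0.04), both singled out after their values were seen. In 37 of these 65, knockout replicate 2 was highest and replicate 1 lowest, which is the order of the mean of the neutrophil markers. Over all probe sets 18.4% had this order. Some of the 65 are themselves among those markers, so part of the count was fixed in advance. Noct did not have this order, since its lowest knockout value was that of replicate 3 and its range over the knockout arrays was 0.22.

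**Figure D2:**
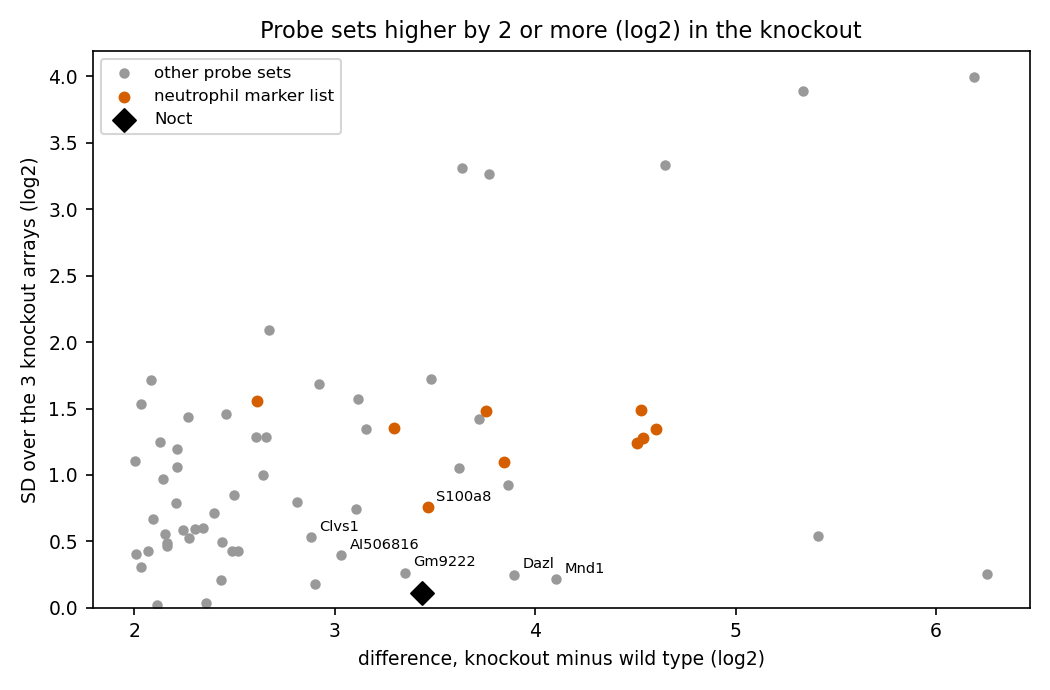
SD over the 3 knockout arrays (y axis, log2) against the difference between knockout and wild type (x axis, log2) for the 65 probe sets higher by 2 or more. Noct (black diamond, SD 0.12) lies near the lower edge, the neutrophil markers (orange) lie at 0.76 or above, and the 6 genes most like Noct are named.

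The genes most like Noct were sought by the root mean square distance between their values and those of Noct over the 6 arrays, each taken relative to its wild type mean. The nearest was Gm9222, a gene model (distance 0.17), followed by AI506816 (0.35), Dazl (0.38), S100a8 (0.48), Clvs1 (0.50) and Mnd1 (0.52). Dazl is a germ cell gene whose protein binds RNA, and Mnd1 encodes a meiotic recombination protein. Dazl stood at 3.17, 3.18 and 3.45 on the wild type arrays and at 7.44, 7.09 and 6.96 on the knockout arrays. Mnd1 stood at 3.88, 3.44 and 3.67 and then at 7.96, 7.81 and 7.53. Gm9222 went from 6.01, 6.46 and 6.39 to 9.88, 9.67 and 9.36, read by a probe set whose suffix (_x_at) marks probes that can bind other transcripts. S100a8, a neutrophil marker, differed by a similar size but with 12.23, 13.75 and 12.88 on knockout replicates 1, 2 and 3. These genes were found by values of the same arrays, so their likeness is a description. The clock probe set nearest to Noct was that of Nr1d1, at a distance of 2.04, and the farthest were those of Dbp, at 2.91 and 2.93. These distances ranked the clock probe sets as their differences between the groups did, so they show no separate likeness to Noct.

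The differences of the other 9 clock genes were not all in 1 direction. Whether the phase of the loop differed between the groups was not tested. Of their 13 probe sets, 0 were called higher and 1 lower, by limma at an adjusted p under 0.05, where 1.19% of all probe sets were called higher and 0.486% lower. At an unadjusted p under 0.05 there were 3 higher and 3 lower, or 6 of 13, against 16.6% of all probe sets. The groups did not overlap in the same number, 6 of 13 (46.2%), against 23.4% of all probe sets. Of the 13 differences 5 were positive and 8 negative, with a median of -0.11, where the median of all probe sets was -0.02. The median size of the difference, whatever its sign, was 0.26 for the 13 and 0.11 for all. Since the genes were proposed with results of these arrays in view, these shares describe the 13 probe sets and are no test of them as a set.

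**Figure D3:**
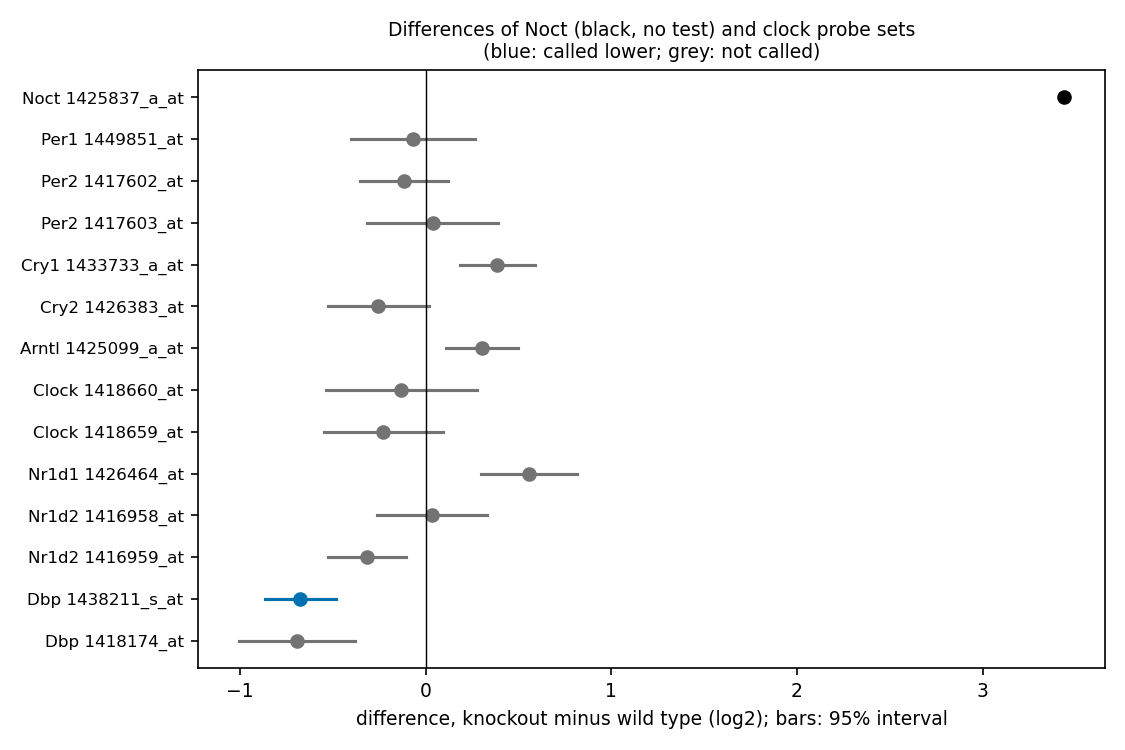
Difference between knockout and wild type (x axis, log2) for each probe set of Noct and the clock genes, with the 95% interval from limma for the 13 clock probe sets. Noct stands at 3.44, the clock probe sets lie between -0.69 and 0.56, and only Dbp 1438211_s_at (blue) was called.

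The gene that fell was Dbp, a transcription factor of the PAR bZIP family whose transcript is among the most strongly rhythmic clock outputs. Its brighter probe set, 1438211_s_at, had values of 7.36, 7.37 and 7.40 in wild type and of 6.82, 6.68 and 6.61 in the knockout. All knockout arrays lay below all wild type arrays, by more than the spread of either group. The means were 7.38 ± 0.02 and 6.70 ± 0.10 (SD, n = 3), a 1.60-fold lower level (difference -0.67, SE 0.08, limma adjusted p = 0.0160). The other probe set, 1418174_at, had 7.03, 6.80 and 7.01 in wild type and 6.44, 5.98 and 6.35 in the knockout, again without overlap. Its difference was of the same size, -0.69 (SE 0.13), but it did not pass (limma adjusted p = 0.0541). It was called without the dimmest 40% of probe sets (adjusted p = 0.0456), with trend and robust variance (0.0364), with array weights (0.0367), with the replicate block (0.0437) and without knockout replicate 1 (0.0361). The suffix _s_at of the first marks probes that can also match transcripts of other genes. Leaving out wild type replicate 1, 2 or 3 ended the call, with adjusted p = 0.0767, 0.0720 and 0.0878, while its difference stayed between -0.73 and -0.63 over all alternatives, with adjusted p from 0.00857 to 0.0878.

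Among the repressors of the loop, Nr1d1 had the largest difference, and it was positive. Its values were 5.46, 5.72 and 5.77 in wild type and 6.07, 6.31 and 6.24 in the knockout. The groups did not overlap, and the difference of 0.56 (95% interval 0.30 to 0.81) missed the threshold with limma adjusted p = 0.0574. It was called when the dimmest 40% of probe sets were left out (adjusted p = 0.0470), with 1 value a gene from the mean of its probe sets (0.0473) and without knockout replicate 1 (0.0431). Nr1d2, its paralogue, had 8.69, 8.49 and 8.29 in wild type and 8.35, 8.67 and 8.57 in the knockout on its brighter probe set, 1416958_at. These values overlapped, with a difference of 0.03 (95% interval -0.26 to 0.33). The dim probe set of Nr1d2, 1416959_at, went the other way, from 3.73, 3.67 and 3.59 to 3.43, 3.41 and 3.21, a difference of -0.31 (95% interval -0.53 to -0.10, adjusted p = 0.150).

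The cryptochrome genes, whose proteins repress the Clock and Arntl pair, had differences of opposite sign. Cry1 had 7.24, 7.04 and 7.23 in wild type and 7.49, 7.61 and 7.57 in the knockout. Its groups did not overlap, and the difference was 0.39 (95% interval 0.18 to 0.59, limma adjusted p = 0.0810). Cry2 had 6.12, 6.34 and 6.22 in wild type and 6.20, 5.84 and 5.87 in the knockout. Here knockout replicate 1 lay among the wild type values, and the difference was -0.26 (95% interval -0.53 to 0.02, adjusted p = 0.326).

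The period genes, partners of the cryptochromes, gave no call. Per1 had 7.86, 7.88 and 7.89 in wild type, the tightest group among the clock probe sets, and 7.59, 8.16 and 7.69 in the knockout. Knockout replicate 2 lay above and the other two below all wild type arrays, so that the difference was -0.07 (95% interval -0.40 to 0.27, limma adjusted p = 0.853). Per2 was among the dimmest 40% of probe sets on both of its own, 1417602_at and 1417603_at. They lay between 3.60 and 4.18 in wild type and between 3.82 and 4.12 in the knockout, with differences of -0.11 (95% interval -0.35 to 0.12) and 0.04 (-0.31 to 0.39). The first was -0.21 without wild type replicate 1 and -0.05 without wild type replicate 2. RMA compresses differences at such low levels.

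Of the activators, Arntl had 7.06, 7.04 and 7.07 in wild type and 7.25, 7.45 and 7.38 in the knockout. All knockout arrays were higher, by 0.30 in the mean (limma 95% interval 0.11 to 0.50), and the adjusted p was 0.132. Clock had a pair of probe sets. On 1418660_at it had 6.15, 6.38 and 6.08 in wild type and 5.67, 6.25 and 6.31 in the knockout, and on 1418659_at it had 6.41, 6.12 and 6.13 and then 5.72, 6.12 and 6.13. Knockout replicate 1 was the lowest array on both. The differences were -0.13 (95% interval -0.54 to 0.28) and -0.23 (-0.55 to 0.09), with overlapping groups. Without knockout replicate 1 they were 0.07 and -0.09, and without wild type replicate 1 the second was -0.13.

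On several of these probe sets the 3 knockout values had the order of the mean of the neutrophil markers. Knockout replicate 2 was highest and replicate 1 lowest on 6 of the 13 clock probe sets, against 18.4% of all probe sets. They were those of Nr1d1, Cry1, Arntl and Per1, 1 of Nr1d2 and 1 of Per2. The spans could be small: Cry1 lay at 7.49 to 7.61 in the knockout, where the neutrophil mean lay at 7.76 to 9.82. On the wild type arrays the neutrophil mean was highest on replicate 2 (6.12) and lowest on replicate 3 (5.74). Nr1d1, Cry1, Arntl and Per1 did not have that order there. The order was the reverse for 2 of the 13, Cry2 and Dbp 1418174_at, against 19.6% of all. The Dbp probe set that was called had neither order, with its lowest value on replicate 3. The part of other cell types in the differences of the clock genes was not tested.

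**Figure D4:**
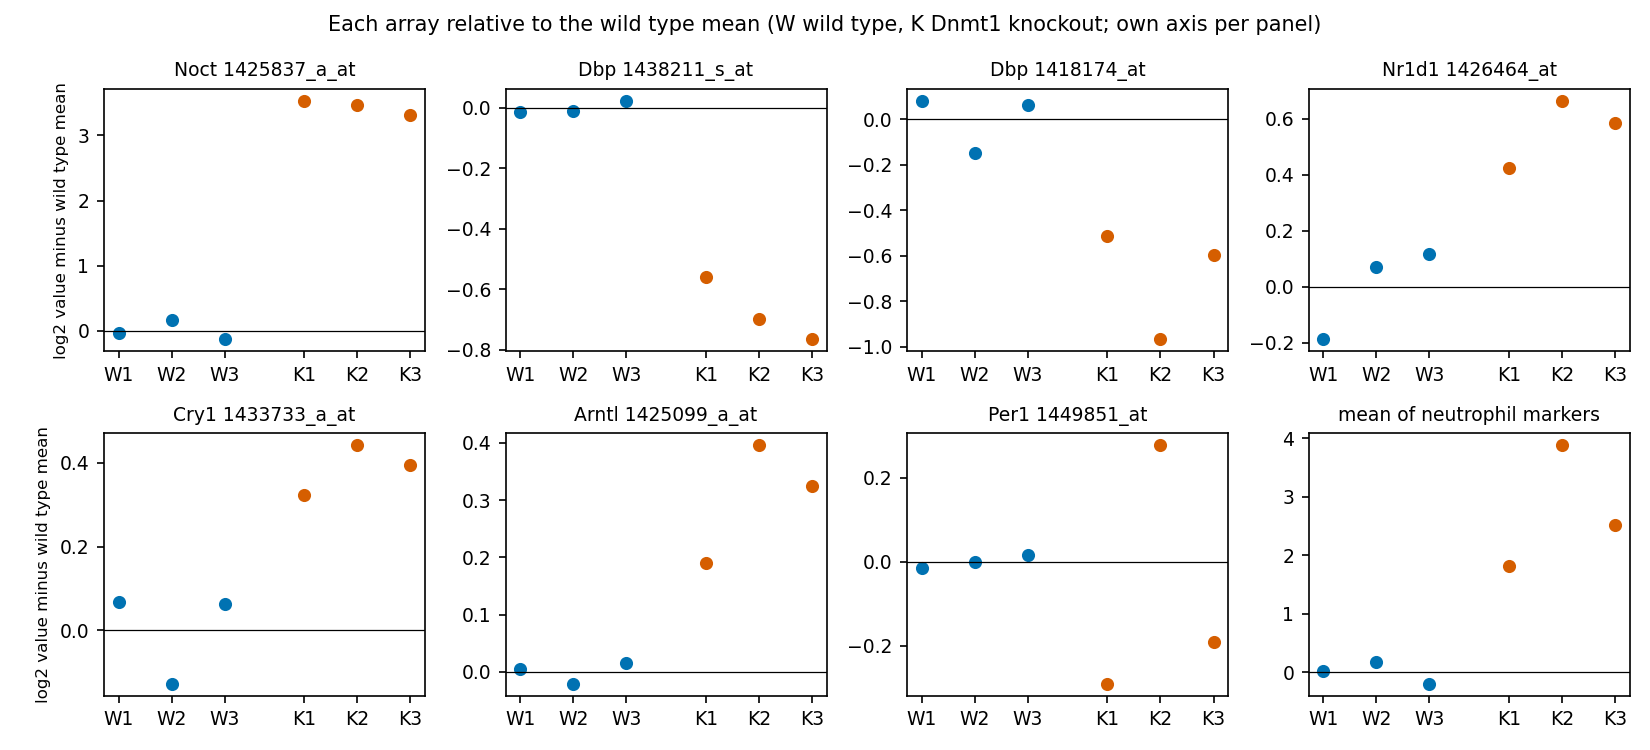
Log2 value of each array minus the wild type mean (y axis, its own scale in each panel) for wild type replicates (W1 to W3, blue) and knockout replicates (K1 to K3, orange), for Noct, 6 clock probe sets and the mean of 16 neutrophil markers. Noct is nearly level over the knockout arrays, while Nr1d1, Cry1, Arntl and Per1 are highest on K2 and lowest on K1, as the neutrophil mean is (7.76, 9.82 and 8.45 as levels).

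Other clock genes and regulators of the loop were taken as a list of 29 genes, of which 24 were measured. By the brightest probe set of each, 0 of 24 were called by limma, 5 (20.8%) had an unadjusted p under 0.05, 4 higher and 1 lower, against 17.7% of all genes, and the median difference was -0.02, against -0.01 over all genes. The largest was that of Id2, an inhibitor of helix-loop-helix factors, with 10.40, 10.01 and 10.32 in wild type and 10.84, 11.71 and 11.46 in the knockout (difference 1.10, adjusted p = 0.0574). It was called with median centring (0.0491), with array weights (0.0345) and without knockout replicate 1 (0.00823). Hlf, a PAR bZIP factor like Dbp, had positive differences where those of Dbp were negative. Its brighter probe set had 4.88, 4.63 and 4.72 in wild type and 5.33, 5.93 and 5.40 in the knockout (difference 0.81, adjusted p = 0.0618). It was called with trend and robust variance (0.0440), with array weights (0.0415) and without knockout replicate 1 (0.0399) or 2 (0.0460). The dimmer one, 1434736_at, singled out after its values were seen, rose from 4.54 ± 0.26 to 5.75 ± 0.25 (difference 1.21, adjusted p = 0.0192). Its call was lost with the replicate block (adjusted p = 0.0606), without wild type replicates 1, 2 and 3 (0.0573, 0.0765 and 0.0983) and without knockout replicate 3 (0.0601). The third PAR bZIP gene, Tef, had a difference of -0.10 (95% interval -0.33 to 0.14, adjusted p = 0.673) on its brightest probe set and of 0.21 (adjusted p = 0.259) on another. Of the 24 genes, 9 had the array order of the neutrophil markers, Id2 and Hlf included, against 18.4% of all probe sets. That share is over probe sets and not over genes.

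Of 4 measured clock output genes, which the loop drives, 0 were called by limma, with 0 at an unadjusted p under 0.05, and those with the lowest p were Alas1 (7.28 ± 0.09 and 7.47 ± 0.06, adjusted p = 0.311), of haem synthesis, and Klf10 (7.28 ± 0.20 and 7.55 ± 0.31, adjusted p = 0.478). The difference of Klf10 went from 0.27 to 0.09 without knockout replicate 2 and to 0.18 without wild type replicate 3. Of 10 genes that respond to glucocorticoids, hormones with a daily rhythm, 0 were called, and 2 (20%) were at an unadjusted p under 0.05, both higher, against 17.7% of all genes. They were Anxa1, encoding annexin A1, with 7.15, 7.07 and 6.77 in wild type and 8.49, 11.04 and 9.43 in the knockout (adjusted p = 0.0649), and the kinase gene Sgk1, with 8.28 ± 0.16 and 8.77 ± 0.14 (adjusted p = 0.0881). Anxa1 was called with array weights (adjusted p = 0.0320) and without knockout replicate 1 (0.0154) or 2 (0.0280). It had the array order of the neutrophil markers, as had 6 of the 10, against 18.4% of all probe sets.

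Genes of mRNA deadenylation and of nucleases related to nocturnin were next. The list of deadenylases, their adaptors and related nucleases had 21 measured genes, of which 18 had a negative difference, against 53.7% of all genes. The median was -0.15, against -0.01 over all genes. By limma 1 (4.76%) was called, as lower, against 0.516% of all genes. At an unadjusted p under 0.05 there were 7 lower (33.3%) and 0 higher, against 9.19% and 8.46% of all genes. The gene that fell was Tob2, an adaptor that recruits the Ccr4-Not deadenylase complex. Its brightest probe set, 1448667_x_at, had 9.43, 9.31 and 9.22 in wild type and 8.77, 8.85 and 8.78 in the knockout (difference -0.52, SE 0.09, adjusted p = 0.0314). The groups did not overlap, nor did they on its other probe sets, where the differences were -0.63 (adjusted p = 0.0290), -0.44 (0.0977) and -0.42 (0.120). The suffix _x_at marks probes that can bind other transcripts. The call of the brightest was lost with the replicate block (adjusted p = 0.0810), without wild type replicates 1, 2 and 3 (0.124, 0.121 and 0.0987) and without knockout replicates 2 and 3 (0.0515 and 0.0898). That of the other called probe set, 1448666_s_at, was lost with the block (0.0795), without each wild type replicate (0.0971 to 0.101) and without knockout replicate 3 (0.0825). Zfp36l1, which encodes an RNA-binding protein that brings deadenylases to AU-rich mRNA, had 11.18 ± 0.08 and 10.72 ± 0.24 (adjusted p = 0.139), and was called without knockout replicate 2 (0.0382).

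**Figure D5:**
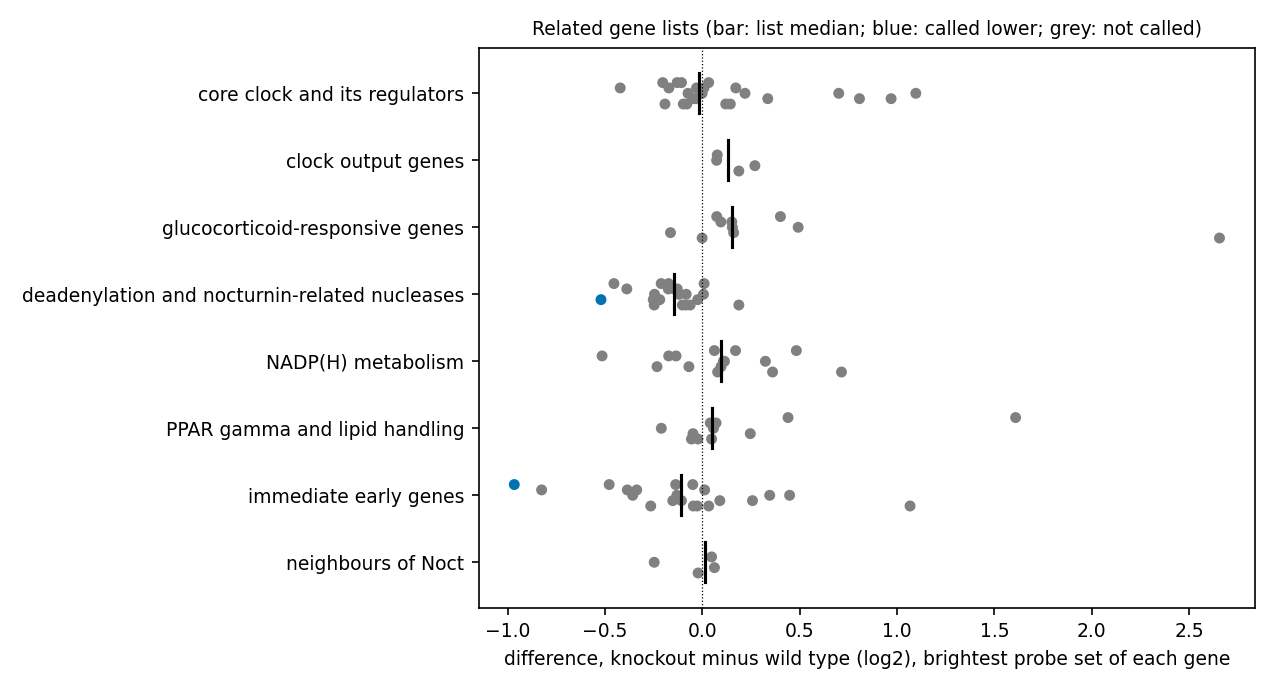
Difference between knockout and wild type (x axis, log2) by the brightest probe set of each gene in 8 lists related to Noct (y axis), with a bar at each list's median. Tob2 and Egr2 (blue) were the only genes called, and the deadenylation list has its median at -0.15.

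Of 15 measured genes of NADP(H) metabolism 0 were called by limma and 6 (40%) had an unadjusted p under 0.05, 4 higher and 2 lower, against 17.7% of all genes (median difference 0.10). Nmnat3, of mitochondrial NAD synthesis, had 4.99 ± 0.18 and 4.47 ± 0.07 (adjusted p = 0.0657), and Nnt, the mitochondrial transhydrogenase that makes NADPH, had 7.23 ± 0.04 and 7.71 ± 0.22 (adjusted p = 0.0951). Nmnat3 was called with quantile normalisation (0.0450) and Nnt without knockout replicate 2 (0.0274). Of 11 genes of PPAR gamma and lipid handling, with which nocturnin has been linked in fat and liver, 0 were called and 2 (18.2%) were at an unadjusted p under 0.05, both higher, against 17.7% of all genes. They were Cebpd, with 4.25 ± 0.48 and 5.86 ± 1.06 (adjusted p = 0.164), and the lipid droplet gene Plin2, with 7.77 ± 0.07 and 8.21 ± 0.22 (adjusted p = 0.130). Without knockout replicate 1 both were called (0.0499 and 0.0284), and without knockout replicate 2 the difference of Cebpd went from 1.61 to 1.04.

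Since Noct is also an immediate early gene, 21 others of that kind were examined. By limma 1 (4.76%) was called, as lower, against 0.516% of all genes. At an unadjusted p under 0.05 there were 2 higher and 5 lower, together 33.3% against 17.7% of all genes, and the median difference was -0.11. The gene called was Egr2, with 7.90, 7.89 and 7.73 in wild type and 7.28, 6.83 and 6.51 in the knockout (difference -0.97, adjusted p = 0.0494). Its call was lost with quantile normalisation (adjusted p = 0.0536), without wild type replicates 1, 2 and 3 (0.189, 0.177 and 0.163) and without knockout replicates 2 and 3 (0.113 and 0.0829). Ier3 had 5.11 ± 0.02 and 6.18 ± 0.54 (adjusted p = 0.0780), and was called without knockout replicate 2 (0.0386) or 3 (0.0471). The array order of the neutrophil markers was that of 6 of these 21 genes, against 18.4% of all probe sets. In the other lists it was that of 2 of 4 clock output and 3 of 21 deadenylation genes. It was also that of 4 of 15 genes of NADP(H) metabolism and 4 of 11 of PPAR gamma and lipid handling.

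The genes beside Noct on its chromosome were examined by the order of the RefSeq gene table. Of the 10 on each side, 4 had a probe set, all on the same side, and the nearest was Elf2, the adjacent gene. Elf2, which encodes an ETS transcription factor, had 7.90, 7.92 and 7.96 in wild type and 7.95, 7.98 and 7.79 in the knockout. These values overlapped, with a difference of -0.02 (95% interval -0.21 to 0.17, limma adjusted p = 0.921). Of the 4 genes 0 were called and 0 had an unadjusted p under 0.05. The lowest p were those of Naa15, with 9.75 ± 0.05 and 9.51 ± 0.21 (adjusted p = 0.330), and Mgarp, with 3.24 ± 0.11 and 3.30 ± 0.20 (adjusted p = 0.835). Without knockout replicate 2 the difference of Naa15 went from -0.25 to -0.13, and that of Mgarp, 0.06, turned to -0.04 without knockout replicate 1. The differences of the 4 genes lay between -0.25 and 0.06 by their brightest probe sets. Of these 4 genes 0 had the array order of the neutrophil markers.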

How the data were processed

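Transcript levels of 6 one-colour arrays were used, 3 per group by the genotype labels. Each probe set has 1 deposited log2 value an array, which the authors computed by RMA, as the submitters' processing notes record. The version of RMA was not given in the sources used here. It normalises between arrays and compresses low levels. All values were used on the deposited log2 scale, and precision is limited by how few arrays there are.

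Probe sets were named through the platform's annotation: of 22626 that were no controls, 20380 had 1 symbol, 691 several and 1555 none, and 20351 of the named were found in the RefSeq table. The comparison used limma 3.58.1 (two-sided; lmFit, eBayes) in R 4.3.3 on all these probe sets, not 1 a gene, since the members are probe sets, with Benjamini-Hochberg adjustment and calls under 0.05. Tested on simulated data, differences of 0.5 were called in 28.2% to 29.1% and of 1 in 80.6% to 86.1%. There the noise was normal, independent between probe sets and of 1 SD for both groups, with few probe sets changed. The real knockout arrays correlated less (0.990 to 0.993) than the wild type arrays (0.996 to 0.997), so the rates for these data may differ.

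The members, lists and tests were chosen with earlier results of these data known. Named from each list were up to 4 called genes, or those with the lowest p up to 2, by their brightest probe set; from the whole, the 6 genes most like Noct. Alternatives were quantile normalisation, median centring, leaving out the dimmest 40%, 1 value a gene (brightest or mean), array weights, trend and robust variance, the replicate number as a block and leaving out each array. Figures used matplotlib 3.10.9.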

Additional observations from a re-analysis of the deposited data

How the results depend on the processing

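The difference of Noct stayed between 3.37 and 3.52 over its 14 alternatives. Clock probe sets called higher were 1 in place of 0, in each case Nr1d1, without the dimmest 40%, with gene means and without knockout replicate 1 (leaving out an array gave 0 to 1). Those called lower were 2 in place of 1, both of Dbp, without the dimmest 40%, with trend and robust variance, with array weights and with the replicate block, and 0 to 2 with an array left out. Over all 22626 probe sets, 270 higher and 110 lower became 166 and 52 with the replicate block. With 1 probe set a gene they were 165 and 71, out of only 12393 tested, so these counts are not comparable with the others. Calls lower became 182 with trend and robust variance and 169 with array weights. Leaving out 1 array gave 24 to 493 higher and 5 to 263 lower, the lowest without wild type replicate 3 and the highest without knockout replicate 1. Deviations of same-numbered arrays correlated at -0.08, 0.11 and -0.01. These values did not show the arrays to be paired by number, and with so few arrays cannot show that they were not. Apart from the smaller number tested with 1 probe set a gene, the cause of these shifts was not tested.

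Signs turned only for differences near 0. Per2 1417603_at (0.04) was at -0.0012 with quantile normalisation and spanned -0.12 to 0.13 with 1 array left out, Nr1d2 1416958_at (0.03) was at -0.14 as a gene mean and spanned -0.066 to 0.13, Per1 (-0.07) spanned -0.24 to 0.043, and Clock 1418660_at (-0.13) spanned -0.25 to 0.071. The signs of Arntl, Cry1, Cry2, Nr1d1, both Dbp probe sets, Clock 1418659_at, Nr1d2 1416959_at and Per2 1417602_at held in every alternative run, though Clock 1418659_at (-0.23) spanned -0.30 to -0.09 and Per2 1417602_at (-0.11) spanned -0.21 to -0.04. With 3 arrays a group, differences of 0.5 were often missed in the simulated data. Dim probe sets such as those of Per2 give little signal over background.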
